A study of Mus musculus with 43 samples.

Results

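The 4 antibody groups of a mouse study of asthma form a 2-by-2 design: a control antibody of the same isotype, anti-IL-33 plus that control, anti-IL-4Ra plus that control, and both blocking antibodies together, called the combination below. They hold 25 of the 43 libraries in the series (7 mice with the isotype control, 6 with anti-IL-33, 7 with anti-IL-4Ra and 5 with the combination), and they were taken by the group in each library's title. Each library is RNA sequencing of whole lung. All 25 mice had been given house dust mite extract (HDM) in the nose for 19 weeks, 3 times a week, and the design text describes the animals as females of a 129S6/C57BL/6 hybrid background, 8 to 12 weeks old, in which human sequence stood in place of the mouse genes Il4 and Il33 and of the ectodomain of Il4ra. Anti-IL-33 is itepekimab and anti-IL-4Ra is dupilumab. Each library is taken as 1 mouse, with the replicate number of its title. The labels do not say whether dosing in these mice began before HDM, at 4 weeks or at 11 weeks, all of which the design text names. The remaining libraries are saline mice (n = 5) and mice given HDM without antibody for 11 weeks (n = 6) or 19 weeks (n = 7). They entered the estimate of spread, and saline levels are given as a reference.

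IL-33 is an alarmin, a cytokine held in the nuclei of barrier and stromal cells and released on damage. It acts through the receptor ST2, encoded by Il1rl1, on group 2 innate lymphoid cells, T helper 2 cells and mast cells, which in turn secrete IL-5 and IL-13. IL-4Ra is a subunit common to the receptors of IL-4 and IL-13, and signals through the transcription factor STAT6 to induce mucus genes in airway epithelium, eosinophil-attracting chemokines in stroma and epithelium, and arginase and resistin-like proteins in macrophages. One antibody therefore acts on a cytokine that can raise IL-13, and the other on the receptor that IL-13 uses.

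The question the design poses is whether the effect of both antibodies equals the sum of the effects of each alone. It was put as a single contrast on the log2 scale: combination minus anti-IL-33 minus anti-IL-4Ra plus isotype. This value is called the departure. It is 0 when the single effects add, below 0 when the combination lies under the sum of the single effects, and above 0 when it lies over the sum. A departure below 0 does not by itself say that the combination is lower than isotype, so the 3 effects against isotype are given beside it, as descriptions with their standard errors (SE) and no test. Levels are in CPM, counts per 1000000 of an adjusted library size. That size is the library total times a scaling factor (TMM) that evens out differences in RNA composition, so it can differ from the total. CPM values depend on transcript length and so are compared within a gene.

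Total counts in the 25 libraries ran from 14.2 M to 24.3 M. The libraries differed in how their expression followed the GC content of transcripts. The slope of log2 expression on GC, per 10 percentage points and relative to the mean of all libraries, had a mean of -0.129 ± 0.263 (SD) in isotype mice, 0.261 ± 0.623 under anti-IL-33, 0.255 ± 0.654 under anti-IL-4Ra and 0.325 ± 0.848 in the combination. Slopes above 0.75, called steep, occurred in 0, 2, 3 and 3 libraries of these groups. In the combination, replicates 1, 5 and 8 were steep at 0.975, 0.82 and 0.927, while replicate 2 was at -0.95 and replicate 3 at -0.145. The library numbers 956119 to 956130 form a run that took in 0 of 7 isotype, 3 of 6 anti-IL-33, 7 of 7 anti-IL-4Ra and 1 of 5 combination libraries. With no isotype library in that run, a departure within it could not be computed. Only the anti-IL-33 and combination groups had libraries both inside and outside the run. Departures given below with the run as a block take its effect from those groups alone, so they are not corrected values. What the run stands for is not given in the sources used here.

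No gene departed from additivity by edgeR's quasi-likelihood test, with 0 of 15979 genes higher and 0 lower (0% called in each direction) and a lowest adjusted p of 0.718. At an unadjusted p under 0.05 there were 160 genes higher (1.0%) and 161 lower (1.01%), 321 in all, where 799 would be expected if no gene departed. DESeq2 called 0 higher and 3 lower, limma voom without sample weights called 0 in each direction, and limma voom with sample weights called 2433 higher and 3088 lower. Those weights were uneven: combination replicates 5 and 8 carried 42.0% and 30.0% of the weight of their group, and both are among the steep libraries described above. In the single-antibody groups the steep libraries carried little, at 1.12% and 1.4% for anti-IL-33 replicates 4 and 5. Anti-IL-4Ra replicates 2, 6 and 8, also steep, carried 1%, 3.83% and 2.42%. The departure combines the error of 4 group means: its median SE was 0.462, against 0.318, 0.306 and 0.336 for the effects of anti-IL-33, anti-IL-4Ra and the combination. A departure of at least 1 on the log2 scale was estimated for 1014 genes, and 253 of these had an unadjusted p under 0.05. These values leave departures of that size undetectable for most genes at this number of mice, and they do not show that the antibodies add.

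Across all genes the median departure was -0.07, and 57.0% of departures were below 0. Across genes, which are not independent replicates, the departure and transcript GC content had a Spearman rho of -0.48. The group means of the GC slope, put into the same contrast, gave -0.319: the combination mean stood above isotype by less than the 2 single-antibody means did when summed. The part of this tilt in the departures below was not tested. Departures without the steep libraries are given beside genes that they move by more than 1.5 times. In the combination group those departures rest on replicates 2 and 3 alone.

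**Figure D1:**
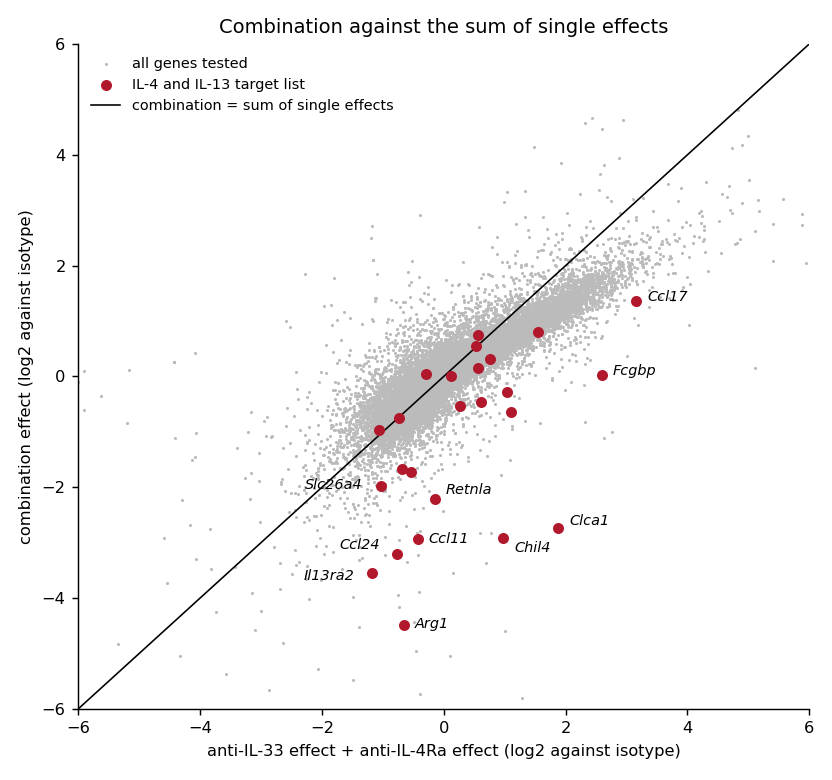
Each grey point is 1 of the genes tested, with the sum of the 2 single-antibody effects on the x axis and the effect of the combination on the y axis, both as log2 against isotype. Red points are the 25 genes of the IL-4 and IL-13 target list and the line marks additivity. Arg1, Clca1, Chil4, Ccl11 and Retnla lie well under the line, and the grey cloud of genes with a positive sum also lies under it. 19 genes lie outside the axes.

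The 8 genes with the lowest p among those under the sum were not called. In Rnase2a, Fbp1, Ccl11, Col6a5 and Ptgdr the single effects were between -0.56 and 0.56 and the combination effect was between -4.43 and -2.94, while Capn9, Cd209e and Msx3 had at least 1 single effect further from 0. Rnase2a, which encodes an eosinophil-associated ribonuclease (Gene ID 93726, chromosome 14, 51255261 to 51256112 on GRCm38.p6), was at 0.932, 1.60, 0.549, 0.850 and 4.02 CPM in the 5 combination mice. With isotype its lowest, median and highest values were 19.8, 23.8 and 72.4 CPM, with anti-IL-33 they were 20.9, 33.0 and 52.9 CPM, and with anti-IL-4Ra they were 1.74, 11.1 and 59.7 CPM. All 5 combination mice were below all isotype and all anti-IL-33 mice, and 2 anti-IL-4Ra mice lay within the combination range. Saline mice ran from 0.033 to 5.67 CPM, so the combination range overlapped saline. The effects against isotype were 0.08 ± 0.59 for anti-IL-33, -0.56 ± 0.57 for anti-IL-4Ra and -4.43 ± 0.78 for the combination on the log2 scale. The departure was -3.95 ± 0.94 (95% interval -5.84 to -2.06, adjusted p = 0.718 by edgeR). The 3 anti-IL-4Ra mice with steep libraries had the lowest Rnase2a in their group, at 6.41, 1.74 and 2.78 CPM, while combination replicates 2 and 3, which were not steep, were at 1.60 and 0.549 CPM. Without the steep libraries the departure was -5.43.

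Ccl11 encodes eotaxin, a chemokine that draws eosinophils through the receptor CCR3 (Gene ID 20292, chromosome 11, 82057832 to 82062955). It was at 7.36, 6.66, 2.29, 3.70 and 6.65 CPM in the combination mice. Its lowest, median and highest values were 22.6, 35.7 and 67.0 CPM with isotype, 16.7, 42.6 and 58.6 CPM with anti-IL-33, and 8.83, 27.8 and 64.4 CPM with anti-IL-4Ra. The 3 steep anti-IL-4Ra libraries were the lowest of their group, at 16.0, 9.87 and 8.83 CPM. Combination replicates 2 and 3, which were not steep, were at 6.66 and 2.29 CPM. The combination did not overlap any of the other 3 antibody groups. Its range lay within that of saline (0.992 to 8.57 CPM) only through saline replicate 3, at 8.57 CPM. The other saline mice, at 0.992 to 1.78 CPM, were below all combination mice. The effects were 0.01 ± 0.40, -0.44 ± 0.39 and -2.94 ± 0.48, and the departure was -2.51 ± 0.61 (95% interval -3.74 to -1.29, adjusted p = 0.718). Leaving out any 1 library kept it between -2.68 and -2.21. Ccl24, a second eotaxin, had effects of -0.66 ± 0.86, -0.12 ± 0.82 and -3.22 ± 1.07, and its departure of -2.44 ± 1.33 had a 95% interval that included 0. It was -0.74 with the library-number run as a block and -5.75 without the steep libraries.

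**Figure D2:**
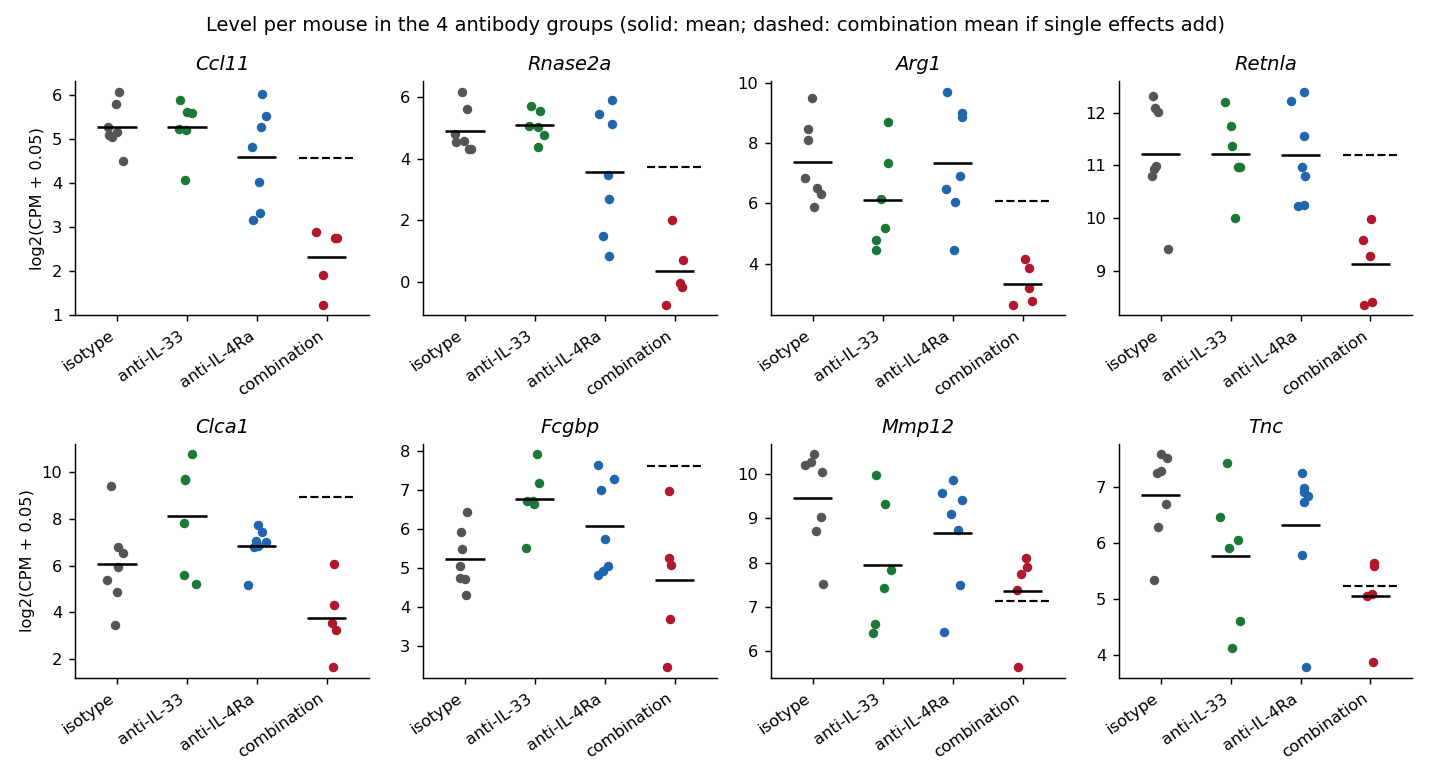
Each point is 1 mouse, on a log2(CPM + 0.05) scale, in the isotype, anti-IL-33, anti-IL-4Ra and combination groups; solid bars are group means and the dashed bar is the combination mean if the single effects added. In Ccl11, Rnase2a, Arg1 and Retnla the combination mean lies under the dashed bar, the anti-IL-33 means of Clca1 and Fcgbp lie above isotype, and Mmp12 and Tnc lie near the dashed bar.

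Fbp1, the gluconeogenic enzyme fructose-bisphosphatase (Gene ID 14121, chromosome 13, 62864753 to 62888298), was at 1.49, 0.466, 0.914, 1.52 and 0.541 CPM with the combination. With isotype it ran from 5.18 to 17.1 CPM around a median of 9.12, with anti-IL-33 from 0.729 to 32.5 CPM around 8.51, and with anti-IL-4Ra from 2.00 to 30.2 CPM around 12.7. The combination overlapped 1 anti-IL-33 mouse and no isotype or anti-IL-4Ra mouse, and all 5 values were below the lowest saline mouse (1.95 CPM). The departure was -4.06 ± 0.97 (adjusted p = 0.718), and it was -1.07 with the library-number run as a block. Col6a5, a chain of collagen VI (Gene ID 665033, chromosome 9, 105856070 to 105962463), was at 4.1, 3.4, 2.65, 1.27 and 6.88 CPM with the combination. Its medians were 46.9 CPM with isotype, 63.9 with anti-IL-33 and 24.5 with anti-IL-4Ra, and 1 anti-IL-33 and 2 anti-IL-4Ra mice lay within the combination range. These were steep libraries: anti-IL-33 replicate 5 at 4.89 CPM, and anti-IL-4Ra replicates 2 and 8 at 3.47 and 4.0 CPM. Anti-IL-33 replicate 4 and anti-IL-4Ra replicate 6, also steep, were outside it at 11.9 and 20.7 CPM. The departure of Col6a5 was -3.70 ± 0.90 (adjusted p = 0.718 by edgeR). DESeq2 called Fbp1, Col6a5 and Rnase2a, each with an adjusted p of 0.0429.

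The remaining genes of this set were low in level. Ptgdr, a receptor for prostaglandin D2, was at 0, 0.466, 0.137, 0.0607 and 0.0773 CPM with the combination against a median of 1.83 CPM with isotype, and its departure was -3.49 ± 0.87. Msx3, a homeobox gene, was at 0 to 0.155 CPM with the combination and 0.467 to 4.64 CPM with isotype, with a departure of -3.14 ± 0.83. Cd209e, a C-type lectin, was at 0.28, 0.266, 0.32, 0.182 and 0.155 CPM with the combination, under all isotype (0.575 to 4.21), anti-IL-33 (0.74 to 11.1) and anti-IL-4Ra mice (0.366 to 1.98). Its departure was -3.61 ± 0.92. Capn9, a calpain protease of epithelium, differed in form: its median was 0.278 CPM with isotype and 1.68 CPM with anti-IL-33, 5 isotype mice lay within or below the combination range, and its departure of -3.74 ± 0.94 came with an anti-IL-33 effect of 1.91 ± 0.59.

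The target list of IL-4 and IL-13 signalling was written with earlier results of these data known, so its direction is not independent evidence. Of its 25 genes tested, 0 were called, 21 had a departure below 0, and 12 were lower and 0 higher at an unadjusted p under 0.05, beside 1.01% and 1.0% of all genes. The list's median departure was -1.06, beside -0.07 over all genes. The median effects of its members were 0.29 for anti-IL-33, -0.04 for anti-IL-4Ra and -0.65 for the combination. Over the alternative fits the number lower at an unadjusted p under 0.05 ran from 8 to 14 and the number higher was 0 in each of them. The 12 genes were Ccl11, Clca1, Arg1, Retnla, Fcgbp, Chil4, Batf3, Muc5ac, Ccl17, Il13ra2, Pdcd1lg2 and Mgl2.

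**Figure D3:**
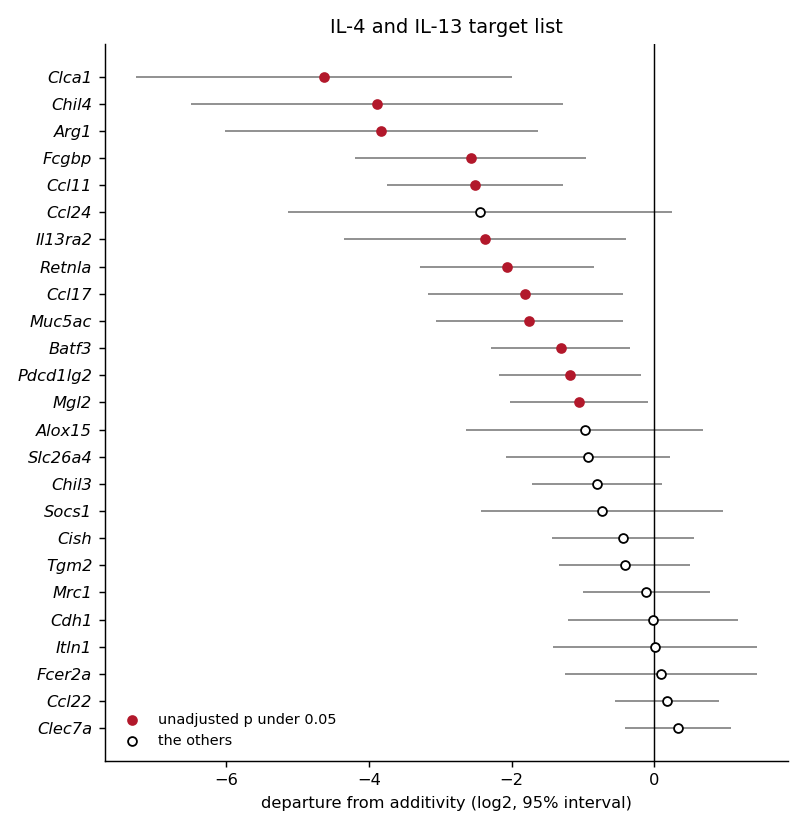
Departure from additivity on the x axis (log2) with its 95% interval for the 25 genes of the IL-4 and IL-13 target list on the y axis, in order of the departure; filled points have an unadjusted p under 0.05. Departures run from -4.62 for Clca1 to 0.33 for Clec7a, 12 points are filled, and all 12 are below 0.

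Among macrophage members, the arginase gene Arg1 (Gene ID 11846, chromosome 10, 24915207 to 24927470), was at 17.9, 6.73, 9.05, 14.4 and 6.19 CPM with the combination. Its lowest, median and highest values were 59.1, 114 and 719 CPM with isotype, 21.7, 53.9 and 421 with anti-IL-33, and 21.8, 120 and 837 with anti-IL-4Ra. No mouse of the other 3 groups lay within the combination range. The effects were -0.97 ± 0.72, 0.32 ± 0.68 and -4.48 ± 0.92, and the departure was -3.83 ± 1.09 (adjusted p = 0.995). With the library-number run as a block it was -1.15. Retnla, the resistin-like protein of alternatively activated macrophages and epithelium (Gene ID 57262, chromosome 16, 48842609 to 48844461), was at 1010, 340, 327, 623 and 769 CPM with the combination. It ran from 682 to 5070 CPM around 2020 with isotype, from 1020 to 4740 around 2320 with anti-IL-33, and from 1200 to 5400 around 2010 with anti-IL-4Ra. All combination mice were below all mice of both single-antibody groups, 3 were below all isotype mice, and all 5 stayed above the highest saline mouse (120 CPM). The departure was -2.06 ± 0.60 (adjusted p = 0.995), and -3.61 without the steep libraries.

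Pdcd1lg2, the PD-1 ligand PD-L2, was at 1.77, 4.86, 3.06, 1.94 and 2.40 CPM with the combination and at 7.04 to 10.9 CPM with isotype, with effects of -0.30 ± 0.33, -0.23 ± 0.32 and -1.72 ± 0.38 and a departure of -1.19 ± 0.49. Batf3, a transcription factor of dendritic cells, had a departure of -1.32 ± 0.48, and the lectin Mgl2 had one of -1.06 ± 0.48. With the library-number run as a block the departures were -0.47 for Pdcd1lg2, -0.63 for Batf3 and -1.87 for Mgl2. These 3 genes were chosen for naming after their values were seen. Chil3, the chitinase-like protein Ym1, stayed high with the combination, at 5910, 3800, 9980, 10900 and 8890 CPM against an isotype median of 12500 CPM and a saline maximum of 514 CPM. Its departure was -0.81 ± 0.45, with an interval of -1.72 to 0.10. Its closely related neighbour Chil4 had a departure of -3.89 ± 1.29, or -5.90 without the steep libraries and -6.12 with the library-number run as a block. How reads were divided between Chil3 and Chil4 is not given in the sources used here, so both values are uncertain. Of the 17 genes in the alternatively activated macrophage list, 16 were found by symbol and tested. The member not found may stand in the data under another symbol, and the counts leave it out. Of those tested, 13 were below 0 (beside 57.0% of all genes). At an unadjusted p under 0.05, 5 were lower (beside 1.01%), 0 were called, and the median departure was -0.75.

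Promoter windows are shown for 3 genes of this pattern, Retnla, Pdcd1lg2 and Cd209e, because each holds TTC and GAA with 4 bases of any kind (N) between them, the palindrome preferred by STAT6. Ccl17 and Capn9 hold it as well and are not printed. Other named or target-list genes that hold it are Alas2, Clec7a, Fcer2a, Il33, Ttc39aos1 and Il4, which was not tested. The departures were -3.59 for Alas2, 0.33 for Clec7a, 0.1 for Fcer2a, 0.08 for Il33 and 3.13 for Ttc39aos1. Windows are from RefSeq on GRCm38.p6, 250 bases before to 50 after the annotated start, 5′ to 3′ on the gene's strand, with the matching letters in capitals. They cover chr16:48842359-48842658 (plus strand) for Retnla, chr19:29410669-29410968 (plus strand) for Pdcd1lg2 and chr8:3854237-3854536 (minus strand) for Cd209e.
Retnla: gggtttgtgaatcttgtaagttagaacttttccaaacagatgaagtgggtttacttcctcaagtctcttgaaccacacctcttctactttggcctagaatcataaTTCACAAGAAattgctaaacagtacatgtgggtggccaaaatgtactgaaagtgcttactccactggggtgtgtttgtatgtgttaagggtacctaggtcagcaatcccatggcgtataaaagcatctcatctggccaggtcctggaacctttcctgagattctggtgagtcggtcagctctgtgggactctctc
Pdcd1lg2: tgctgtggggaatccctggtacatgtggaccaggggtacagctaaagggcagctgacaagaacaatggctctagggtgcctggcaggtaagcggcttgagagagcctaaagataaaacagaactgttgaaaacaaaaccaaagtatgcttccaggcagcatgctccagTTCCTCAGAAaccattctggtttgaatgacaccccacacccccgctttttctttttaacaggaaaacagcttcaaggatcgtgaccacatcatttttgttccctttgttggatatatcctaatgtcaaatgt
Cd209e: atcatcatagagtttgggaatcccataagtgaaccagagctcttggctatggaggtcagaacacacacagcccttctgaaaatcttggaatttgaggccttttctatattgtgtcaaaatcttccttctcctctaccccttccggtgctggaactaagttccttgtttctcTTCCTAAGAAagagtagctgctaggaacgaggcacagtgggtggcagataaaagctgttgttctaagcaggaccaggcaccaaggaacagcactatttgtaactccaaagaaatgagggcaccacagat
The first matching base lay 145 bases before the start in Retnla, 82 in Pdcd1lg2 and 79 in Cd209e. Of the 12 target-list genes named above, 8 had a window, and 3 of those 8 held TTC and GAA 4 bases apart. Counted separately, 3 of the 8 held them 3 bases apart, the spacing of other STAT factors. Of the 17 target-list genes with a window, 5 held each motif. Both motifs read the same on either strand. Of all 32851 windows of the same length, 6.95% held the first and 8.3% the second. These shares are per window, while a gene was counted if any of its windows held the motif, so they are not like for like. A match describes these letters only, and Ccl11, Arg1, Clca1 and Muc5ac were not looked at.

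Among 16 genes of goblet cells and mucus, 12 had a departure below 0 (beside 57.0% of all genes), 5 were lower at an unadjusted p under 0.05 (beside 1.01%), 0 were called, and the median departure was -1.07. The median effects of its members were 1.04 for anti-IL-33, 0.57 for anti-IL-4Ra and 0.19 for the combination. Clca1, a secreted protein of goblet cells (Gene ID 23844, chromosome 3, 145004537 to 145032776), had the lowest departure of the target list. It was at 9.32, 19.6, 11.4, 3.03 and 66.9 CPM with the combination. With isotype it ran from 11.0 to 688 CPM around 61.2, with anti-IL-33 from 36.6 to 1750 around 526, and with anti-IL-4Ra from 35.5 to 216 around 128. Groups overlapped: 4 isotype mice, 2 anti-IL-33 mice and 1 anti-IL-4Ra mouse lay within the combination range. The effects were 2.07 ± 0.86, -0.19 ± 0.81 and -2.75 ± 0.99, and the departure was -4.62 ± 1.30 (95% interval -7.26 to -1.99, adjusted p = 0.995).

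Fcgbp, a mucus-bound protein that binds the Fc part of IgG, was at 38.4, 5.46, 12.9, 33.9 and 126 CPM with the combination and had medians of 33.1 CPM with isotype, 104 with anti-IL-33 and 53.4 with anti-IL-4Ra. All 7 isotype mice lay within the combination range. Its effects were 1.53 ± 0.54, 1.07 ± 0.52 and 0.02 ± 0.57. Its departure of -2.57 ± 0.80 thus went with a combination level close to isotype. Mice given HDM for 19 weeks without antibody had a median Fcgbp of 77.7 CPM, above that of isotype. With them as control in place of isotype the departure was -1.5. Muc5ac, the gel-forming mucin of goblet cells, had effects of 1.11 ± 0.44, -0.01 ± 0.42 and -0.65 ± 0.47 and a departure of -1.75 ± 0.65. Bpifb1, a secreted airway protein, had effects of 1.4 ± 0.52, 0.70 ± 0.50 and -0.10 ± 0.54 and a departure of -2.19 ± 0.76. The anion exchanger Slc26a4, singled out after its values were seen, had effects of -0.69 ± 0.39, -0.34 ± 0.37 and -1.97 ± 0.44 and a departure of -0.93 ± 0.57. Its combination values, 49.4 to 183 CPM, were under all isotype values (229 to 591 CPM) and above all saline values (3.77 to 14.7 CPM). The summed level of the goblet list overlapped between groups, from 1240 to 2720 CPM with isotype, 1220 to 4170 with anti-IL-33, 1560 to 2320 with anti-IL-4Ra and 1150 to 2410 with the combination. In whole lung, fewer cells of a type and less RNA per cell cannot be told apart.

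The chemokine Ccl17, a ligand of CCR4 on T helper 2 cells, was higher with each treatment than with isotype in its estimates, at 2.13 ± 0.47, 1.04 ± 0.45 and 1.35 ± 0.48, and its departure was -1.81 ± 0.68. It was -0.89 without anti-IL-33 replicate 4, the mouse at 109 CPM, and -0.56 without the steep libraries. Ccl8, which recruits CCR8-bearing T cells in mouse, had medians of 59.0 CPM with isotype, 69.0 with anti-IL-33 and 45.3 with anti-IL-4Ra, and was at 25.6, 4.93, 31.1, 20.8 and 33.5 CPM with the combination. Its departure was -1.85 ± 0.72. Of the 19 chemokine and receptor genes tested, 13 had a departure below 0 (beside 57.0% of all genes), 3 were lower (beside 1.01%) and 0 higher at an unadjusted p under 0.05, and the median was -0.37.

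Of 17 genes tested among the type 2 cytokines and their receptors, upstream of these genes, 8 were above and 9 below 0. The median was -0.03, and of all genes 57.0% were below 0. In this list 1 gene, Il13ra2, was lower at an unadjusted p under 0.05 (beside 1.01% of all genes). Il13ra2 encodes the decoy receptor of IL-13 and is itself induced by that cytokine. It was at 0.0932, 0.2, 0.0914, 0.182 and 0.387 CPM with the combination, below all isotype mice (1.35 to 4.21 CPM), with 3 anti-IL-4Ra mice in its range. Those 3, at 0.133, 0.274 and 0.195 CPM, were the steep libraries of their group. The departure of Il13ra2 was -2.38 ± 0.98, or -3.79 without the steep libraries. Il13 was at 1.4, 0.533, 3.15, 0.121 and 0.928 CPM with the combination and at a median of 1.59 with isotype, 1.48 with anti-IL-33 and 2.58 with anti-IL-4Ra, and the groups overlapped. Its departure was -0.44 ± 0.69, with an interval of -1.83 to 0.94. It was -1.26 without combination replicate 3, -0.15 without combination replicate 5, -0.25 without combination replicate 2 or anti-IL-33 replicate 6, -0.2 without anti-IL-33 replicate 7, -0.68 without isotype replicate 8 and -0.23 without the steep libraries. Il5, the eosinophil growth factor, had a departure of 1.34 ± 1.03 that rested on combination replicate 3, at 2.56 CPM, and was -1.02 without it. Il1rl1, the IL-33 receptor, had effects of -0.89 ± 0.48, -0.37 ± 0.46 and -2.03 ± 0.54 and a departure of -0.78 ± 0.70. It was -1.42 without combination replicate 2, the mouse at 15.2 CPM, and -0.51 without anti-IL-33 replicate 7.

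Of the 3 genes replaced with human sequence, Il4 had 0 counts in all 25 libraries. Counts assigned to mouse Il33 gave a departure of 0.08 ± 0.59, and those assigned to mouse Il4ra gave -0.56 ± 0.58. The latter was -0.09 without anti-IL-33 replicate 4, -0.21 without anti-IL-4Ra replicate 2, -0.92 without combination replicate 1, -0.29 without combination replicate 2 and -0.24 without the steep libraries. The former had values on both sides of 0 when 1 library was left out, from -0.65 to 0.30, and was -0.02 without the steep libraries. How reads from the human parts were assigned is not given in the sources used here, so these values are not readings of the replaced parts. Among 16 genes of cells that respond to IL-33, 7 were below 0 (beside 57.0% of all genes) and the median was 0.04. At an unadjusted p under 0.05, 2 were lower (beside 1.01% of all genes). Calca, a neuropeptide gene, was at 0.466, 0.799, 0.731, 1.03 and 1.70 CPM with the combination, below all anti-IL-4Ra mice (1.83 to 6.14 CPM), and its departure was -1.92 ± 0.55. Klrg1, a receptor of activated lymphocytes, had a departure of -1.46 ± 0.61, or -0.93 without anti-IL-4Ra replicate 2.

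Of the 22 matrix and remodelling genes tested, 18 had a departure below 0 (beside 57.0% of all genes), 0 had an unadjusted p under 0.05 in either direction, and the median was -0.38, beside -0.07 over all genes. Mmp12, the macrophage elastase, was at 167, 277, 214, 49.6 and 239 CPM with the combination and had medians of 1060 CPM with isotype, 201 with anti-IL-33 and 547 with anti-IL-4Ra. Its effects were -1.19 ± 0.52, -0.73 ± 0.49 and -2.17 ± 0.58, against a sum of single effects of -1.92, and its departure was -0.25 ± 0.74. The interval, -1.75 to 1.24, holds departures of more than 1 in either direction. It was 0.36 without anti-IL-33 replicate 7, -0.75 without the steep libraries and 1.68 with the library-number run as a block. Tnc, the matrix glycoprotein tenascin C, had effects of -0.86 ± 0.41, -0.40 ± 0.39 and -1.84 ± 0.45, a sum of -1.25, and a departure of -0.59 ± 0.59. That departure was -0.12 without anti-IL-33 replicate 7, -0.39 without combination replicate 8, 0.33 with the library-number run as a block and -1.19 without the steep libraries. Timp1, an inhibitor of metalloproteinases, had effects of -0.02 ± 0.49, -0.29 ± 0.47 and -1.57 ± 0.54 and a departure of -1.27 ± 0.72, or -0.43 without anti-IL-33 replicate 4. Col1a1, a chain of collagen I, had a departure of -0.33 ± 0.60, or -0.79 without the steep libraries, and its 3 highest combination values, 1450, 942 and 1100 CPM, were in the 3 steep libraries.

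Of the 8 genes named for a departure above 0, none was called. One of them was Mmp8, neutrophil collagenase (Gene ID 17394, chromosome 9, 7558429 to 7568486), at 37.6, 41.3, 25.6, 24 and 5.96 CPM with the combination. It ran from 6.01 to 12.4 CPM around 8.20 with isotype, from 3.32 to 19.3 around 6.78 with anti-IL-33, and from 2.29 to 15.1 around 7.65 with anti-IL-4Ra. The first 4 combination values were above every mouse of the other 3 groups and the fifth was below all isotype mice. Its effects were 0.00 ± 0.40, -0.25 ± 0.39 and 1.61 ± 0.42, and the departure was 1.87 ± 0.58 (adjusted p = 0.995). The neutrophil list did not share this: 5 of its 11 genes were above 0 and 6 below (beside 57.0% of all genes below). At an unadjusted p under 0.05, 1 was higher (beside 1.0%) and 1 lower (beside 1.01%), and the median was -0.14. S100a9, a calgranulin of neutrophils, had a departure of -1.80 ± 0.84, or -0.27 without anti-IL-33 replicate 4, the mouse at 974 CPM. Cxcl5, a neutrophil-attracting chemokine of epithelium, had effects of -0.42 ± 0.45, -1.30 ± 0.44 and -0.26 ± 0.47 and a departure of 1.46 ± 0.65.

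Serpinb1c, a serpin gene, was lower than isotype with each antibody in its estimates (-1.69 ± 0.44 and -1.53 ± 0.43) and by no more than that with both (-1.0 ± 0.46), which gave a departure of 2.22 ± 0.65. The departure was 3.42 ± 1.01 for Erdr1, 4.14 ± 1.27 for Rex2 and 1.95 ± 0.69 for Zfp981. Rex2 and Zfp981 lie within 1 cluster of similar zinc finger genes on chromosome 4, so their counts are uncertain. For Ttc39aos1, an antisense gene, the departure of 3.13 was 0.20 without combination replicate 2, the mouse at 32.3 CPM. For Gbp10, an interferon-induced GTPase gene, 3.24 became 1.44 without combination replicate 3, at 12.3 CPM, and for the pseudogene Morf4l1-ps1 1.48 became 0.76 without combination replicate 2.

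**Figure D4:**
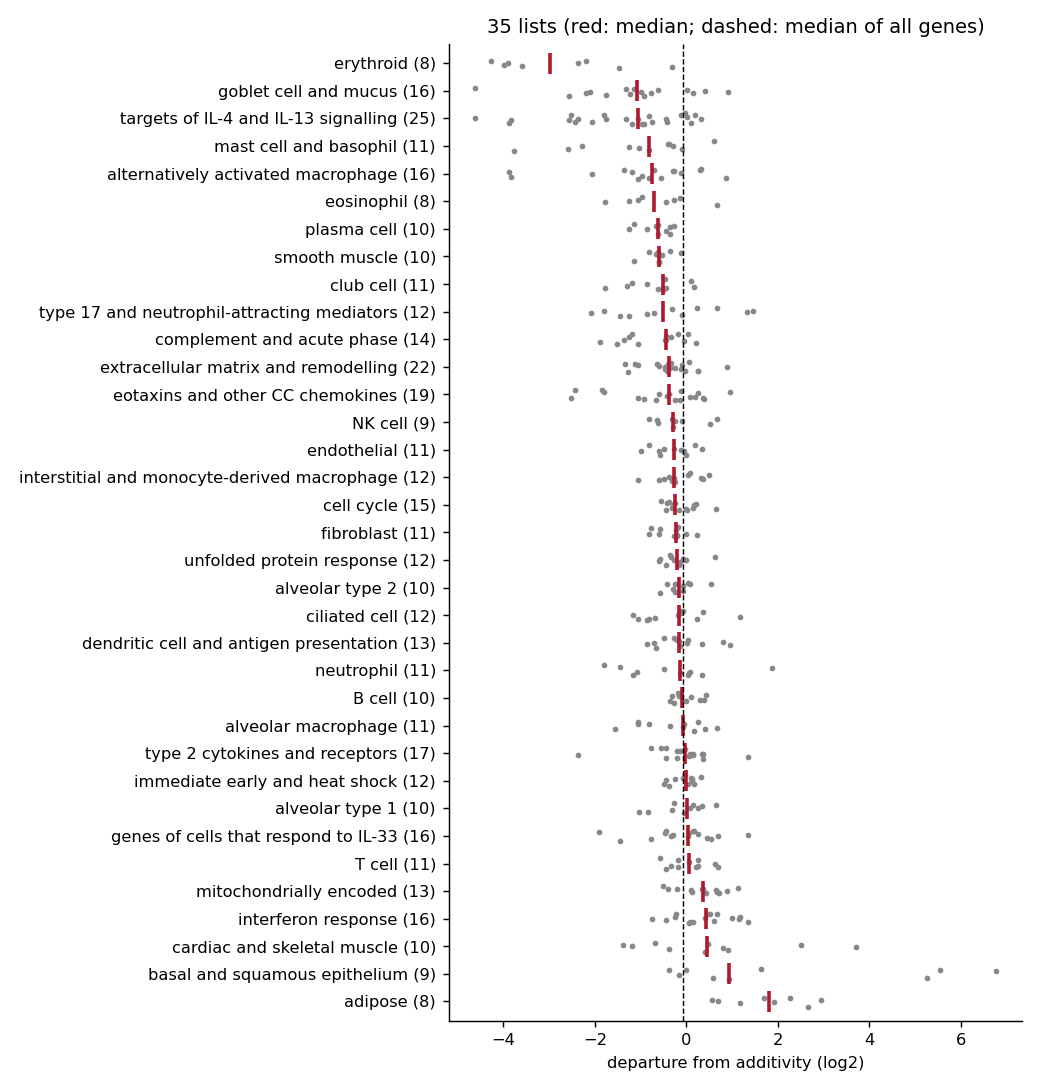
Departure from additivity on the x axis (log2) for each gene (grey points) of 35 lists on the y axis, with the number of genes tested in parentheses; red bars are list medians and the dashed line is the median of all genes, -0.07. The goblet list and the IL-4 and IL-13 target list have medians of -1.07 and -1.06, the erythroid list -2.98 and the adipose list 1.81.

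The counts of the cell type lists stand beside 57.0% of all genes with a departure below 0 and 1.01% lower at an unadjusted p under 0.05. Mast cell and basophil genes had 10 of 11 departures below 0, 3 lower at an unadjusted p under 0.05 and a median of -0.82. The mast cell protease Mcpt1 was at 0 to 34.4 CPM with anti-IL-33, where replicate 7 held the highest value, and its departure of -3.77 ± 1.10 was -1.53 without that mouse. It was -0.24 with the library-number run as a block. Its related neighbour Mcpt2 had a departure of -2.58 ± 1.11, and -0.88 without the same mouse; how reads were divided between related genes is unknown. Fcer1a, a chain of the IgE receptor, had a departure of -2.28 ± 1.03, or -1.20 without anti-IL-4Ra replicate 2. This gene was low, with 21 counts over all isotype libraries and 28 over all combination libraries. Eosinophil genes had 7 of 8 below 0, with Ear2 at -1.24 ± 0.55, or -0.75 without anti-IL-33 replicate 4, and a median of -0.71. Plasma cell genes had 10 of 10 below 0 and a median of -0.62. Their leading gene, the antibody-folding factor Mzb1, stood at -1.14 ± 0.55, while the antibody joining chain Jchain stood at -0.35 ± 0.72, or -0.14 without the steep libraries. Smooth muscle genes also had 10 of 10 below 0, with a median of -0.60 and the actin gene Actg2 at -1.15 ± 0.55. Summed levels of both lists overlapped between all 4 groups.

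Complement and acute phase genes had 12 of 14 departures below 0 (beside 57.0% of all genes) and a median of -0.45. At an unadjusted p under 0.05, 3 of them were lower (beside 1.01%). C3, the central complement component, was at 539, 1730, 1730, 1220 and 655 CPM with the combination, below all isotype mice (2540 to 4290 CPM), and its departure was -1.18 ± 0.54. Fga, a fibrinogen chain, was at 8.11, 4.93, 4.25, 6.86 and 8.35 CPM with the combination, below all isotype (13 to 68.6) and all anti-IL-4Ra mice (10.7 to 41.4). Its departure was -1.37 ± 0.64. Saa2, an acute phase protein, had one of -1.90 ± 0.93, or -0.8 without the steep libraries. It was low, with 28 counts over all isotype libraries and 23 over all combination libraries. Interferon response genes leaned the other way, with 12 of 16 above 0 and 4 below (beside 57.0% of all genes below). None was past an unadjusted p of 0.05, and the median was 0.43. T cell genes had a median of 0.06 and alveolar type 1 cell genes one of 0.01.

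2 lists moved with a few libraries. All 8 erythroid genes tested had departures below 0 (beside 57.0% of all genes), with a median of -2.98. Anti-IL-4Ra replicates 2, 4 and 6 were high in them: Slc4a1 (anion exchange across the red cell membrane) was at 598, 19.4 and 56.9 CPM in these mice and at 0.787 to 1.85 CPM in the other 4. Without these 3 mice the departure of Slc4a1 was 2.08 in place of -3.98, that of the haem synthesis enzyme Alas2 was 1.0 in place of -3.59, and that of the globin gene Hbb-bt, one of several near-identical copies, was 1.11 in place of -3.89. Without the steep libraries, which include replicates 2 and 6, the 3 departures were -1.98, -1.27 and -0.92, and with anti-IL-4Ra replicate 2 alone left out they were -1.15, -1.3 and -1.14. The summed erythroid level ran to 193000 CPM with anti-IL-4Ra and to 2090 CPM with isotype. The share of erythroid RNA in the other departures was not tested. Without these 3 mice the departure was -2.72 for Ccl11, -3.95 for Rnase2a, -3.77 for Arg1 and -1.94 for Retnla. All 8 adipose genes had departures above 0, with a median of 1.81, while 57.0% of all genes were below 0. Cfd, the fat cell protease adipsin, was at 275 and 351 CPM in combination replicates 1 and 8 and at 12.0 to 22.6 CPM in the other 3, and its departure was 2.66 ± 1.29, or 1.28 without the steep libraries. Pck1, a gluconeogenic enzyme of fat and liver, was at 6.52 and 3.87 CPM in the same 2 mice, with a departure of 2.95 ± 1.08, or 1.06 without the steep libraries. The summed adipose level ran to 784 CPM with the combination and to 75 CPM with isotype. Among muscle genes, the heart myosin Myh7 had a departure of 2.50 ± 0.96.

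To describe where departures came from, genes were sorted by their single effects, a description made after the counts were seen. Of the 161 genes lower at an unadjusted p under 0.05, 23 (14.3%) had both single effects within 0.5 of 0 and a combination effect beyond 1, as Ccl11 and Retnla had, beside 1.81% of all genes. In 61 of them (37.9%) both single effects were beyond 0.5 in 1 direction and the departure ran against it, as in Fcgbp, beside 20.6% of all genes. In 48 (29.8%) only 1 single effect was beyond 0.5, as in Clca1 and Arg1, beside 18.7%. Of the 160 genes higher, the same forms held 11, 39 and 57. The contrast that chose these genes also contains the effects that sort them, so the shares are no test.

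**Figure D5:**
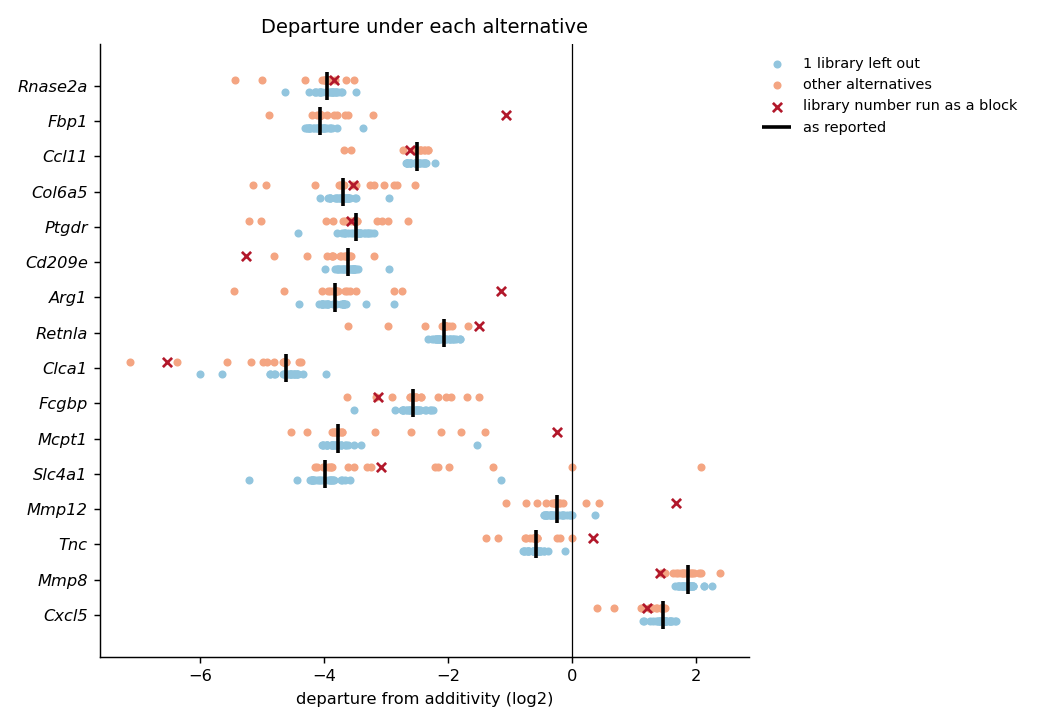
Departure on the x axis (log2) of 16 genes on the y axis: as reported (black bar), with each of 25 libraries left out (blue), under the other alternatives (orange) and with the library-number run as a block (cross). Ccl11 stays between -3.68 and -2.21, Fbp1 and Arg1 move to -1.07 and -1.15 with the run as a block, and Mmp12, Tnc and Slc4a1 have values on both sides of 0.

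Across the alternatives, Rnase2a, Fbp1, Ccl11, Col6a5, Ptgdr, Capn9, Cd209e, Arg1, Retnla, Clca1 and Fcgbp had departures below 0 in all 43 fits. Several of these genes were named for a low p in this same contrast, and 25 of the fits left out only 1 library. Their constant sign is therefore no separate evidence, and 44 of all 61 genes followed never changed sign. Calls of the listed genes depended on the tool and the libraries. Col6a5 was called by 3 alternatives, Rnase2a, Ptgdr, Cd209e and Clca1 by 2 each, Fbp1, Ccl11, Capn9, Arg1 and Retnla by 1 each and Fcgbp by 0. Limma voom with sample weights was among them for each of these genes but Fbp1 and Fcgbp.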

How the data were processed

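Whole-lung RNA was read as strand-specific single reads of 33 cycles from libraries made with 500 ng of RNA and 12 cycles of PCR, per the labels' protocols. The deposited table holds expected counts (estimated read numbers per NCBI Gene ID, not scaled to library size; 76.8% of nonzero values are whole) for 24475 genes. The build was mm10, per the submitters' processing notes. For the aligner, the counter, the annotation and the use of strand: not given in the sources used here. Symbols and positions came from RefSeq GRCm38.p6 (24375 IDs matched, 100 did not), and transcript GC from GENCODE for 15230 of the genes tested.

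Counts were rounded, filtered with filterByExpr by group and scaled with TMM. All 43 libraries entered 1 quasi-likelihood model fitted robustly with edgeR 4.0.16 in R 4.3.3, with 1 mean for each group and 36 residual degrees of freedom; the biological coefficient of variation was 0.431. The test of the departure was 2-sided, p was adjusted by Benjamini-Hochberg over all genes tested, and the threshold was 0.05. The code was also run on simulated counts with the same spread for every gene and no GC tilt, unlike these libraries. That run checked the code and does not say how well departures are found here. Nothing else was tested. Total counts were 14.2 M to 24.3 M per library. The labels number the samples, and no pair of libraries held identical values. Nothing else says that they came from separate animals, so p-values measure the spread between these samples.

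The members and the 35 lists were chosen with earlier results of these data known. The rule for named genes took per direction up to 8 genes with the largest departure among those called, filled up by unadjusted p; none was called, so all 8 were filled, with a mean of at least 1 CPM in a group and without predicted gene models, unnamed IDs and the segments of immunoglobulin and T cell receptor genes. It also took 18 fixed type 2 and remodelling genes, the 3 genes replaced with human sequence, and up to 3 genes of lowest p per list. Batf3, Pdcd1lg2, Mgl2 and Slc26a4 were added after their values were seen. Alternatives were DESeq2 1.42.0, limma 3.58.1 (voom), other filters and scalings, blocks for the replicate number or for the run of library numbers, GC corrections, other control groups and leaving out libraries.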

Additional observations from a re-analysis of the deposited data

Results flagged for a closer look

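Of 248 sets of values looked at (a named gene, or the GC slope, in 1 antibody group), 20 had a lowest or highest mouse that stood apart from the rest of its group by Dixon's criterion on log2 CPM, a criterion that chance meets in about 1 of 20 sets. Ccl11 in anti-IL-33 replicate 5 was at 16.7 CPM while the others of its group ran from 36.9 to 58.6 CPM. Msx3 in combination replicate 3 was at 0 CPM while the others of its group ran from 0.0932 to 0.155 CPM. Erdr1 in isotype replicate 6 was at 0.207 CPM while the others of its group ran from 3.64 to 16.3 CPM. Erdr1 in anti-IL-33 replicate 3 was at 0.342 CPM while the others of its group ran from 2.97 to 4.78 CPM. Rex2 in anti-IL-4Ra replicate 7 was at 0.604 CPM while the others of its group ran from 0 to 0.0975 CPM. Mmp8 in combination replicate 8 was at 5.96 CPM while the others of its group ran from 24 to 41.3 CPM. Morf4l1-ps1 in anti-IL-33 replicate 7 was at 2.4 CPM while the others of its group ran from 7.99 to 13.7 CPM. Zfp981 in isotype replicate 4 was at 0 CPM while the others of its group ran from 0.518 to 1.23 CPM. Clca1 in anti-IL-4Ra replicate 4 was at 35.5 CPM while the others of its group ran from 110 to 216 CPM. Il13ra2 in anti-IL-33 replicate 5 was at 0.222 CPM while the others of its group ran from 1.25 to 2.33 CPM. Tnc in anti-IL-4Ra replicate 2 was at 13.7 CPM while the others of its group ran from 54.8 to 152 CPM. Jchain in anti-IL-4Ra replicate 2 was at 6170 CPM while the others of its group ran from 1470 to 2440 CPM. Ccl17 in anti-IL-4Ra replicate 2 was at 45.2 CPM while the others of its group ran from 8.1 to 14.6 CPM. Ccl8 in combination replicate 2 was at 4.93 CPM while the others of its group ran from 20.8 to 33.5 CPM. S100a9 in anti-IL-33 replicate 4 was at 974 CPM while the others of its group ran from 41.9 to 132 CPM. Mcpt1 in isotype replicate 6 was at 0.415 CPM while the others of its group ran from 1.18 to 2.3 CPM. Mcpt2 in combination replicate 3 was at 0.0457 CPM while the others of its group ran from 0.546 to 0.932 CPM. Mzb1 in combination replicate 2 was at 12.1 CPM while the others of its group ran from 71.6 to 112 CPM. Alas2 in isotype replicate 9 was at 50.7 CPM while the others of its group ran from 12.6 to 20.9 CPM. Pck1 in anti-IL-33 replicate 4 was at 0 CPM while the others of its group ran from 0.307 to 1.05 CPM. The mice that recur are isotype replicate 6, anti-IL-33 replicates 4 and 5, anti-IL-4Ra replicate 2, and combination replicates 2 and 3. Combination replicate 3 recurs through Msx3 and Mcpt2, which had only 7 and 41 counts over all combination libraries.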

How the results depend on the processing

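Over 43 alternatives, 61 genes gave 2613 departures, of which 2532 kept their direction and their side of the threshold, 29 were in the same direction and newly past the threshold, and 52 had the opposite sign. 44 genes never changed sign. With the 19-week HDM mice as control, some departures kept their sign but moved by more than 1.5 times. They became 1.47 for Serpinb1c, 0.9 for Zfp981, -1.5 for Fcgbp, -1.07 for Calca, -0.86 for Fcer1a and -1.4 for Mcpt2. For Klrg1 the value was -0.96, for Actg2 -0.54, for Il1rl1 -0.39, for Jchain -0.71, for Il4ra -0.28 and for Mmp12 -0.15. The count of genes called, 0 higher and 0 lower, became 0 and 3 with DESeq2, 2433 and 3088 with limma voom and sample weights, 0 and 1 (Ptgdr, adjusted p = 0.0498) when the model also held the GC slope, and 2 and 1 once the steep libraries were left out. With each library left out in turn it was 0 higher and 0 to 1 lower, the 1 being Npffr2 without isotype replicate 6. The replicate numbers were not taken as pairs, since not every same-number correlation was over 0.1 (14 of 26 were, in a range of -0.696 to 0.647, and 4 of 25 libraries correlated best with their own number); with the replicate block 0 genes were higher and 2 lower (Clca1 at -7.13 and Cd209e, adjusted p = 0.0301 for both), and the departure of Mmp12 was 0.43. The cause of these differences was not tested.

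With the library-number run as a block the SE was 1.25 in place of 0.74 for Mmp12 and 1.81 in place of 1.11 for Mcpt2. In that fit the sign turned for Il13 (0.39), Mmp12 (1.68), Tnc (0.33), Col1a1 (1.18), Il33 (-0.21) and Mcpt2 (0.05). For Il33 it also turned with the GC slope as a covariate (-0.28, or -0.31 in the 4 antibody groups alone), with GC and length offsets (-0.20) and without the steep libraries (-0.02). With the 19-week HDM mice as control it turned for Il13 (0.01), Col1a1 (0.38) and Il33 (-0.22), and with the mean of both controls for Col1a1 (0.02) and Il33 (-0.07). With limma voom and sample weights it turned for Ttc39aos1 (-1.96), Il5 (-2.92), Col1a1 (0.80), Jchain (0.65), Il33 (-1.77), Il4ra (0.97), S100a9 (0.13), Fcer1a (0.57), Ear2 (0.15), Alas2 (0.35), Hbb-bt (0.57) and Saa2 (0.63).

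3 alternatives were chosen after seeing the data. In limma voom without sample weights the sign turned for Il5 (-0.01) and Mmp12 (0.22). Without the 2 combination libraries that were not steep it turned for Ttc39aos1 (-2.16), Il5 (-5.27), Col1a1 (0.17), Jchain (0.00) and Il33 (-1.09). Without anti-IL-4Ra replicates 2, 4 and 6 it turned for Jchain (0.03), Il33 (-0.17), Alas2 (1.0), Hbb-bt (1.11) and Slc4a1 (2.08). With 1 library left out, departures ran from -0.65 to 0.30 for Il33, -1.02 to 2.04 for Il5, -0.46 to 0.36 for Mmp12, -0.63 to 0.09 for Col1a1 and -0.70 to 0.03 for Jchain. For genes at 10 CPM or more the spread between mice, at 5 to 7 mice a group, limited the precision more than depth did.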
